A study of Mus musculus with 6 samples.

Results

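Cone photoreceptors see colour and daylight with their own set of proteins. The 10 genes described here encode that set, from the cone opsins to the cone channel, and were taken as a named list (Opn1sw, Opn1mw, Arr3, Gnat2, Pde6c, Pde6h, Gngt2, Gnb3, Cnga3 and Cngb3) by the roles of their products, with no threshold on a measured value. In a cone, light isomerises the retinal bound to an opsin, the opsin activates the G protein transducin, and transducin releases the inhibitory subunit from a phosphodiesterase that destroys cyclic GMP. The cyclic GMP-gated channel then closes and the cell hyperpolarises, until a kinase and arrestin shut the opsin off. Rods run the same cascade with products of other genes, and a mouse retina holds far more rods than cones, so cone transcripts form a small part of retinal RNA. Of the 10 genes, 9 had at least 1 transcript in the values used and 8 could be compared between the groups, among 25202 genes tested. Pde6c, the catalytic subunit of the cone phosphodiesterase, was not analysed here.

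RNA-seq was performed on total retinal cells of wild type C57BL/6 mice aged 5 weeks. All of the mice had received NMDA, a glutamate receptor agonist that injures inner retinal neurons, into the vitreous. On day 2 the eyes received recombinant stem cell factor (SCF, the ligand of the receptor c-kit) or PBS, and retinas were taken a week later, giving 3 libraries of NMDA + PBS and 3 of NMDA + SCF. No uninjured retina is compared here, and the labels do not say whether the 3 libraries of a group came from separate animals, so p values measure the spread between libraries only. The libraries held 44925938 to 48783182 clean reads, of which 3404333 to 4440576 fragments were counted to transcripts. The comparison asks whether the cone cascade differed after SCF in the injured retina.

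Before any fold change, a property of the files has to be stated. The 3 NMDA + SCF libraries and the first NMDA + PBS library were quantified on the same list of transcripts (list A), and the other 2 NMDA + PBS libraries, replicates 2 and 3, on another (list B). The gene values below are FPKM (fragment counts divided by transcript length and by library size) summed over the transcripts present in both lists. Since list B holds only NMDA + PBS libraries, a difference that follows the list and a difference that follows SCF cannot be told apart in those libraries, and NMDA + PBS replicate 1 is the only control on the list of the treated libraries. Values are compared on log2(FPKM + 1), which understates the change of low genes, and where 3 values are given for a group they are those of replicates 1, 2 and 3. Total retinal cells were sequenced, so fewer cones and less RNA per cone cannot be told apart either.

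The cone genes showed no difference between NMDA + SCF and NMDA + PBS that passed the correction for all genes. None of the 8 reached an adjusted p of 0.05 in limma (Benjamini-Hochberg), and neither did any of the 25202 genes (0%). At an unadjusted p of 0.05, 1 of the 8 was lower in NMDA + SCF (Cngb3) and 0 were higher, where 4.9% of all genes were lower and 4.33% higher (2324 genes in all, or 9.22%). That balance depends on the scaling, with 1234 genes lower and 1090 higher as deposited, 1439 and 770 with upper quartile scaling, 1457 and 753 with median-of-ratios scaling, and 1562 and 558 without mitochondrial genes. The 3 NMDA + SCF values lay below all 3 NMDA + PBS values for Cngb3 and Opn1sw, against 6.45% of all genes, and above them for none of the 8, against 7.63% of all genes. Fitted differences were below 0 for 5 of the 8 and above 0 for 3, with a median of -0.08 on the log2 scale beside -0.01 for all genes tested. For 4 of the 8 genes, Gnat2, Cngb3, Opn1sw and Pde6h, both list B libraries lay above all 4 list A libraries, which held for 14.4% of all genes. The reverse held for 0 of the 8 and for 10.9% of all genes.

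**Figure D1:**
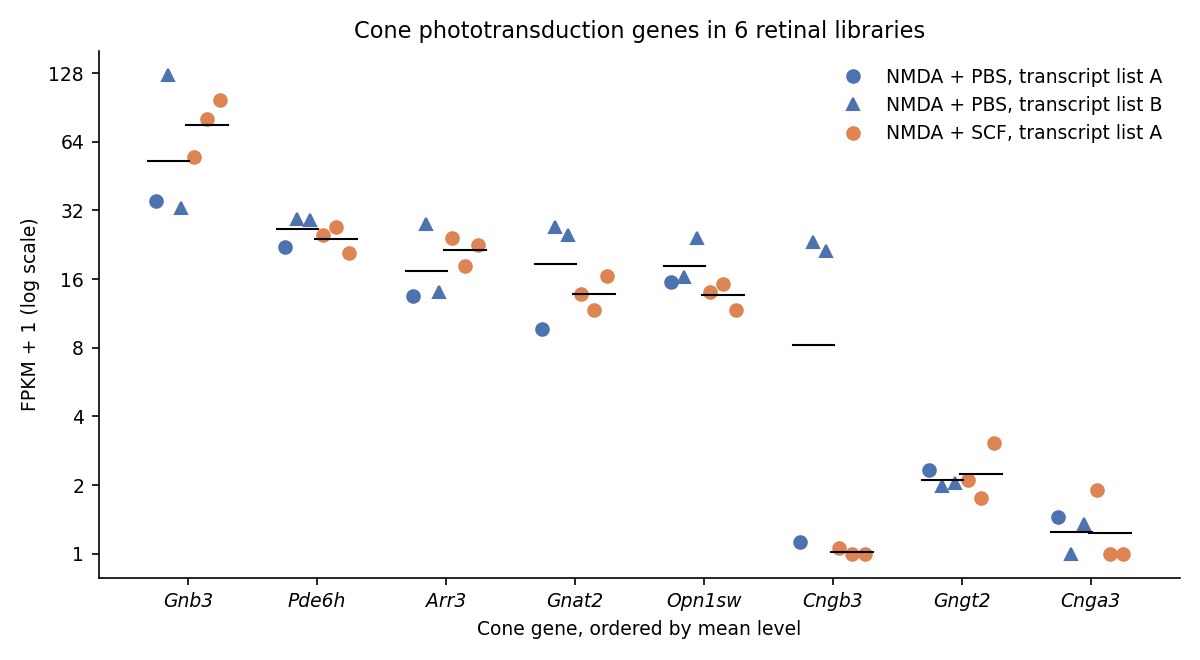
Level of the 8 cone genes in each of the 6 libraries, as FPKM + 1 on a log axis, ordered by mean level. Each point is 1 library, triangles mark the NMDA + PBS libraries quantified on transcript list B, and black lines are the group means on the log scale. Cngb3 is above 20 FPKM in both triangles and at most 0.125 FPKM in the other 4 libraries, whereas Pde6h lies between 19.8 and 28.3 FPKM in all 6.

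The short-wavelength cone opsin Opn1sw (chr6:29376671-29388468, minus strand, GRCm38) is the pigment that gives mouse cones their sensitivity to ultraviolet light. Its level was 14.5, 15.4 and 23.3 FPKM in NMDA + PBS, and 13.0, 14.3 and 10.7 FPKM in NMDA + SCF. The groups did not overlap, but the lowest NMDA + PBS value and the highest NMDA + SCF value were close, at 14.5 and 14.3 FPKM, and NMDA + PBS replicate 3 stood well above the other 5 libraries. The group means were 17.7 ± 4.82 and 12.7 ± 1.84 FPKM (SD, n = 3 each), a ratio of 0.715. The fitted difference was -0.43 (SE 0.24), with an adjusted p of 0.570 in limma, so it was within what the spread between libraries allows. Leaving out each library gave -0.55 to -0.23, the smallest without NMDA + PBS replicate 3, and within list A the NMDA + SCF mean lay -0.19 from NMDA + PBS replicate 1. The values rest on 119, 133 and 249 fragments in NMDA + PBS and 88, 115 and 89 in NMDA + SCF.

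Nearly all of these fragments were on a single coding transcript of 5 exons and 2410 bases, ENSMUST00000080428. On this transcript alone the levels were 14.5, 13.6 and 23.3 FPKM in NMDA + PBS and 10.2, 13.6 and 10.7 FPKM in NMDA + SCF, and the groups overlapped by a narrow margin. The rest came from a second transcript of 408 bases, ENSMUST00000173653, with at most 4 fragments in any library. Of the 2410 bases, 392 are shared with exons of Calu on the opposite strand. Whether the counting used strand is not given in the sources used here, so a part of the Opn1sw signal could not be separated from Calu.

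The medium-wavelength opsin Opn1mw (chrX:74127464-74150760, plus strand) is the green-sensitive pigment of mouse cones. It was represented by 1 non-coding transcript of 749 bases, ENSMUST00000123401, in list A only. That transcript had 0 fragments in the list A libraries except for 1 fragment (0.386 FPKM) in NMDA + SCF replicate 3. Coding transcripts of Opn1mw were not analysed here, so the balance of the opsins was not computed and these values say nothing about the level of the pigment's mRNA.

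Cone transducin is built from the alpha subunit Gnat2, the beta subunit Gnb3 and the gamma subunit Gngt2. Gnat2 (chr3:108092789-108101432, plus strand) carries the signal from opsin to phosphodiesterase. It stood at 8.66, 26.2 and 24.0 FPKM in NMDA + PBS and at 12.8, 10.7 and 15.4 FPKM in NMDA + SCF. The list B libraries were the highest 2 of the 6, and NMDA + PBS replicate 1 was the lowest. The fitted difference was -0.44 (SE 0.41, adjusted p = 0.707 in limma), and it ranged from -0.91 without NMDA + PBS replicate 1 (adjusted p = 0.0776 in limma) to -0.17 without replicate 2 when each library was left out. Within list A the NMDA + SCF mean lay 0.52 above NMDA + PBS replicate 1 on the log2 scale, the opposite direction, with 1 control library and no test.

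Gnb3 (chr6:124834240-124840275, minus strand), a beta subunit that ON bipolar cells use as well, had the highest mean level of the 8 genes on the shared transcripts. It measured 34.3, 125 and 31.7 FPKM in NMDA + PBS and 53.7, 79.5 and 96.9 FPKM in NMDA + SCF. NMDA + PBS replicate 2 was above every NMDA + SCF library, and the other NMDA + PBS libraries were below them all. The fitted difference was 0.52 (SE 0.52, adjusted p = 0.727 in limma), and ranged from 0.18 without NMDA + PBS replicate 3 to 1.15 without replicate 2 (adjusted p = 0.520 in limma) when each library was left out. It was 0.31 without mitochondrial genes and 1.10 within list A. All of the Gnb3 signal came from a processed transcript of 3 exons and 582 bases, ENSMUST00000140233, with 68 to 289 fragments, and no coding transcript of this gene was analysed here.

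Gngt2 (chr11:95837216-95845734, plus strand) holds the beta-gamma pair at the membrane. Its level was 1.33, 0.980 and 1.05 FPKM in NMDA + PBS and 1.10, 0.758 and 2.07 FPKM in NMDA + SCF. With 2 to 7 fragments per library the groups overlapped, and no difference was detectable at this depth. One of its transcripts, of 498 bases, shares 102 bases with exons of Abi3 on the opposite strand.

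Pde6h (chr6:136923832-136968865, plus strand), the inhibitory subunit that keeps the cone phosphodiesterase silent in the dark, varied least over the 6 libraries among the 5 most abundant genes. It was at 21.1, 28.3 and 27.9 FPKM in NMDA + PBS and at 23.9, 25.9 and 19.8 FPKM in NMDA + SCF, with 335 to 630 fragments per library. The group means, 25.8 ± 4.04 and 23.2 ± 3.13 FPKM (SD, n = 3 each), differed by less than either spread. The fitted difference was -0.14 (SE 0.20), with a 95% interval of -0.61 to 0.33, and the adjusted p was 0.808 in limma. Leaving out each library gave -0.27 (without NMDA + PBS replicate 1) to -0.03 (without NMDA + SCF replicate 3). It was -0.35 without mitochondrial genes and turned to 0.12 within list A. Its coding transcript of 5940 bases, ENSMUST00000137768, gave 289 to 562 of these fragments.

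The cyclic GMP-gated channel of cones is made of Cnga3 and Cngb3. Cngb3 (chr4:19280850-19510623, plus strand), the modulatory subunit, gave the largest fitted difference of the 8 genes. It read 0.125, 22.4 and 20.2 FPKM in NMDA + PBS and 0.0620, 0 and 0 FPKM in NMDA + SCF. In fragments this was 2, 419 and 423 against 1, 0 and 0, all on the coding transcript of 18 exons and 4708 bases, ENSMUST00000102999. The level therefore separated the list B libraries from the list A libraries, and NMDA + PBS replicate 1 was on the side of the NMDA + SCF libraries. Against a floor of 3 fragments per NMDA + SCF library, the NMDA + SCF mean was at least 77.2-fold lower than the NMDA + PBS mean, at least 55.2-fold lower without NMDA + PBS replicate 2 and at least 61.0-fold lower without replicate 3. All 4 list A libraries were below that floor, so no fold can be given within list A.

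In limma the Cngb3 difference was -3.01 (SE 1.10), with an unadjusted p of 0.0280 and an adjusted p of 0.536. Without NMDA + PBS replicate 1, which leaves the list and the condition identical, it was -4.45 with an adjusted p of 0.000613 in limma. Leaving out any one of the other 5 libraries took its unadjusted p above 0.05. Rows with names from a merged assembly have no gene assigned and numbered 9842 in list A and 6219 in list B. Their part in this pattern was not tested.

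Cnga3 (chr1:37214434-37263384, plus strand), the subunit that forms the pore, was near the limit of counting. Its shared transcript of 651 bases had at most 2 fragments in any library, giving 0.451, 0 and 0.346 FPKM in NMDA + PBS and 0.897, 0 and 0 FPKM in NMDA + SCF. Over all list A transcripts, which add a coding transcript of 3554 bases, Cnga3 had 11 fragments in NMDA + PBS replicate 1 and 9, 11 and 5 in NMDA + SCF. These levels, 1.28 FPKM against 1.47, 0.889 and 0.407 FPKM, placed the single control library inside the range of the treated ones.

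Arr3 (chrX:100605497-100618493, plus strand), the cone arrestin that caps the activated opsin, stood at 12.5, 26.8 and 13.1 FPKM in NMDA + PBS and at 23.3, 17.2 and 21.5 FPKM in NMDA + SCF. NMDA + PBS replicate 2 was the highest of the 6, and the other NMDA + PBS libraries were the lowest. The fitted difference was 0.30 (SE 0.31, adjusted p = 0.733 in limma), and ranged from 0.12 without NMDA + PBS replicate 1 to 0.64 without replicate 2 (adjusted p = 0.601 in limma) when each library was left out. It was 0.10 without mitochondrial genes and 0.67 within list A. These values rest on 32 to 76 fragments, mostly on a transcript annotated as retained intron, ENSMUST00000141676, of 8 exons and 749 bases.

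Most of the Arr3 signal lay outside the shared transcripts. In list A, another retained intron transcript of 16 exons and 1692 bases, ENSMUST00000131906, reached 65.8 FPKM in NMDA + PBS replicate 1 and 58.1, 54.2 and 93.0 FPKM in NMDA + SCF. Summed over the 4 list A transcripts, Arr3 was at 88.0 FPKM in NMDA + PBS replicate 1 and at 94.7, 77.9 and 129 FPKM in NMDA + SCF, and the control library again fell within the treated range. When transcripts outside list B were entered as 0 in the list B libraries, Arr3 showed a difference of 1.60 with an unadjusted p of 0.0410 and an adjusted p of 0.487 in limma. That difference comes from the construction, since list B cannot give those transcripts a value.

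**Figure D2:**
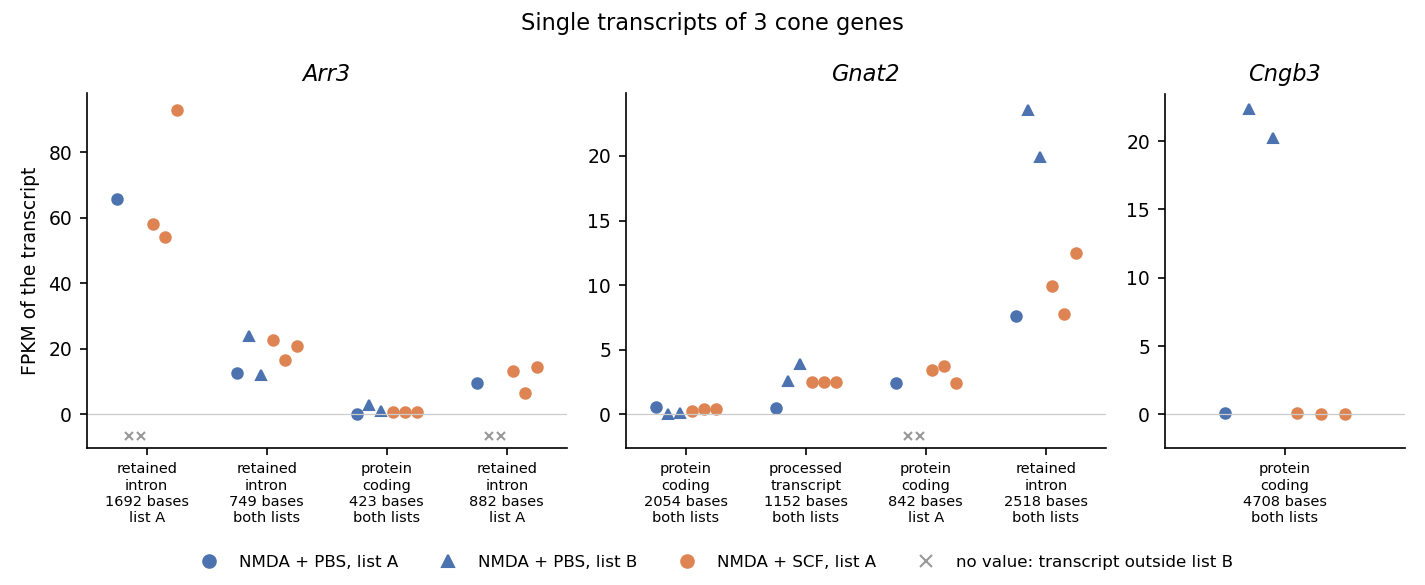
FPKM of each single transcript of Arr3, Gnat2 and Cngb3 in the 6 libraries, with the annotation, length and transcript list below each. Crosses under the zero line mark libraries on list B, in which a list A transcript has no value. The retained intron transcript of 1692 bases holds most of the Arr3 signal in list A, and the list B triangles stand apart for the 2518-base transcript of Gnat2 and for Cngb3.

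The annotation of these transcripts matters for reading the levels. Of the cone fragments on shared transcripts, 31.7, 40.3 and 25.9% in NMDA + PBS and 41.9, 34.4 and 51.6% in NMDA + SCF were on transcripts annotated as retained intron or processed transcript. The class counted also takes in transcripts annotated for nonsense-mediated decay, which occurred among the rod counterparts, as in Cngb1, and not among the cone genes. For the 9 rod counterparts the same share was 19.9 to 34.0%, and over all shared transcripts it was 6.09 to 9.26%, so a high share was not a trait of the cone genes alone. Counting error alone gave 95% Wilson intervals of 23.8 to 28.0% for the lowest cone value and 48.1 to 55.0% for the highest, and the groups overlapped. The cone totals of NMDA + PBS replicates 2 and 3, 1710 and 1674 fragments, include 419 and 423 fragments of the coding Cngb3 transcript. The other libraries had 0 to 2 of these. Cngb3 therefore lowers the share of both list B libraries, and which libraries are lowest and highest depends on this gene. The files give no read positions, so it is not known how many of these fragments lay within introns.

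The places where such transcripts leave the coding gene are shown for Arr3 and Gnat2, because the shared values of both genes rest mostly on these models. The exon is in lower case and the intron bases that the transcript keeps are in capitals, 30 bases each, from the GRCm38 reference on the plus strand. In Arr3 the transcript runs from exon 8 of the coding transcript into the next intron, which is 640 bases long, and ends inside it (chrX:100612828-100612887). In Gnat2 it keeps the whole intron of 769 bases after exon 4 (chr3:108095551-108095610).
Arr3 ENSMUST00000141676: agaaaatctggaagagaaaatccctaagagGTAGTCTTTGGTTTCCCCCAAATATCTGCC
Gnat2 ENSMUST00000142568: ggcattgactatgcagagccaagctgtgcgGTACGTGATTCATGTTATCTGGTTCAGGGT
Both intron stretches open with GT, the usual first bases of an intron. Gnat2 ENSMUST00000142568 had 7.58, 23.6 and 19.9 FPKM in NMDA + PBS and 9.97, 7.76 and 12.5 FPKM in NMDA + SCF, which is the pattern of the whole gene. The full coding transcript of Gnat2, ENSMUST00000058669, had at most 4 fragments in any library.

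Promoter sequence was examined because cone and rod genes share the regulators CRX and OTX2, which bind the core TAATCC, read on the opposite strand as GGATTA. RefSeq promoter windows, 250 bases before to 50 after each start site on GRCm38, were found for 6 of the 10 genes in 7 windows. The core on either strand was in 1 of these windows, that of Gnat2, and in 7.06% of the 32851 windows of all genes. In the Gnat2 window it lay 19 bases before the start site on the plus strand (chr3:108093035-108093064, core in capitals).
Gnat2: gggacaatccccGGATTAggaaggagctct
A match describes these letters and not a bound site.

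The genes were ordered by mean level over the 6 libraries on the shared transcripts. The order ran Gnb3 (70.2 FPKM), Pde6h (24.5), Arr3 (19.1), Gnat2 (16.3), Opn1sw (15.2), Cngb3 (7.13), Gngt2 (1.22) and Cnga3 (0.282). The ranges of Gnb3 and Pde6h did not overlap, whereas every later neighbour in this order overlapped the one before it. Some genes are represented by their coding transcript and others by a fragment of the gene. This is therefore the order of the analysed transcripts and not of the proteins. Over all list A transcripts Arr3, at 77.9 to 129 FPKM, was above Pde6h in every list A library. It was also above Gnb3 in each of them except NMDA + SCF replicate 2. The place of Cngb3 describes no single library, since it was at 0 to 0.125 FPKM in list A and at 20.2 to 22.4 FPKM in list B.

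The rod counterparts place the cone values within the same libraries. The 9 reported here were tested, none passed an adjusted p of 0.05 in limma, and at an unadjusted p of 0.05 there was 1 higher (Pde6b) and 1 lower (Gnb1). Pde6b, a catalytic subunit of the rod phosphodiesterase, was at 301, 283 and 267 FPKM in NMDA + PBS and at 414, 405 and 393 FPKM in NMDA + SCF, a difference of 0.51 (SE 0.17, adjusted p = 0.536 in limma). The NMDA + SCF values of Pde6b and of Pde6g, the rod inhibitory subunit, lay above all NMDA + PBS values, but those of Pde6g overlapped after upper quartile or median-of-ratios scaling. Gnb1, the beta subunit of rod transducin and of many other G proteins, measured 76.2, 89.6 and 127.8 FPKM in NMDA + PBS and 71.3, 58.8 and 64.2 FPKM in NMDA + SCF.

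The other rod genes overlapped between the groups without rescaling. Under each of the other 3 scalings the NMDA + SCF values of Cnga1 lay below all NMDA + PBS values, and under upper quartile scaling those of Cngb1 lay above them. Rod arrestin Sag averaged 659 ± 145 FPKM in NMDA + PBS and 739.6 ± 69.3 in NMDA + SCF, the catalytic subunit Pde6a 1672 ± 447 and 1692 ± 189.8, and the channel subunit Cngb1 102 ± 22.6 and 134 ± 10.5 (SD, n = 3 each). Gnat1 averaged 24.98 ± 16.7 and 18.8 ± 3.19 FPKM, and Gngt1 46.8 ± 7.58 and 41.2 ± 5.88. The pore subunit Cnga1 was at 36.5, 49.4 and 227 FPKM in NMDA + PBS and at 37.0, 29.2 and 22.6 FPKM in NMDA + SCF, with a difference of -1.33 (adjusted p = 0.545 in limma). Both list B libraries were above all list A libraries, and NMDA + PBS replicate 3 was by far the highest.

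**Figure D3:**
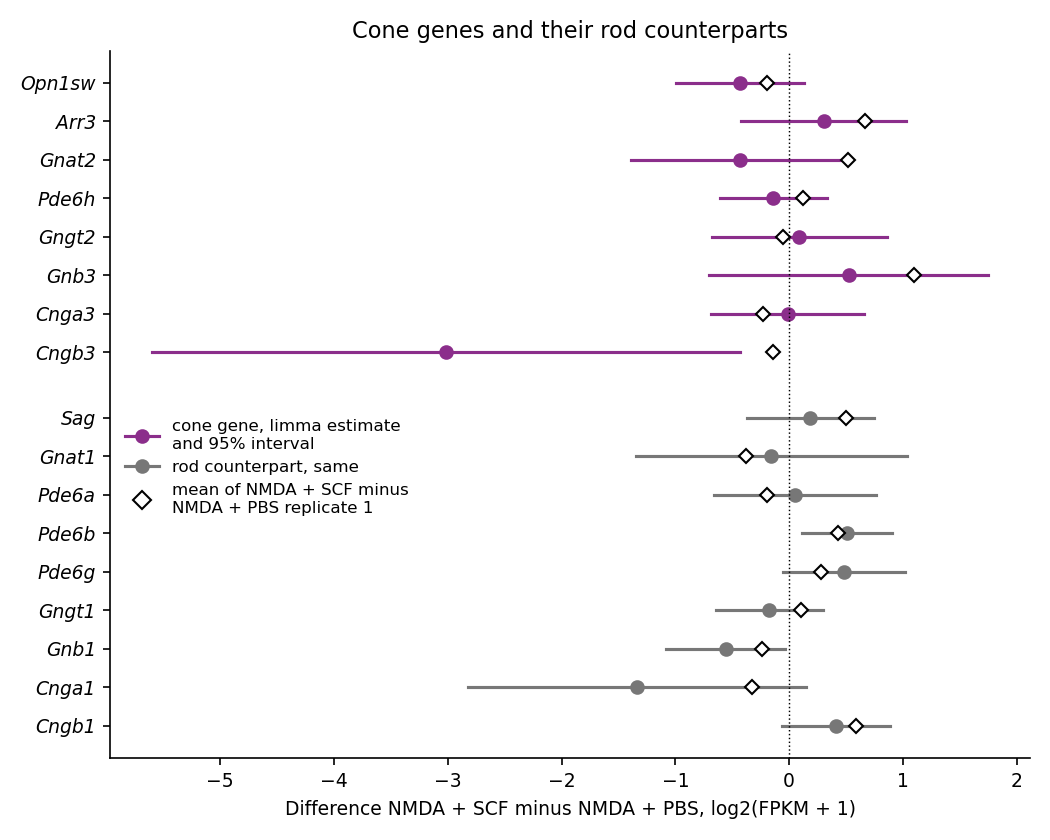
Fitted difference between NMDA + SCF and NMDA + PBS on log2(FPKM + 1) for the 8 cone genes (purple) and 9 rod counterparts (grey), with 95% intervals from limma. Open diamonds give the NMDA + SCF mean minus NMDA + PBS replicate 1, the only control library on the same transcript list, without a test. The intervals of Cngb3, Pde6b and Gnb1 leave out 0 before correction, and the diamond of Cngb3 is at -0.14.

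Dividing a cone gene by its rod counterpart within each library removes library size. Of 7 such pairs all NMDA + SCF values lay below all NMDA + PBS values in 1, Cngb3 to Cngb1, which follows the transcript list as Cngb3 does, and the reverse was true of 0. Arr3 was 2.40, 3.30 and 2.03% of Sag in NMDA + PBS and 2.84, 2.45 and 3.08% in NMDA + SCF. Pde6h was 9.48, 12.6 and 19.3% of Pde6g and then 7.93, 10.7 and 7.32%. Gnat2 ranged from 35.3 to 281% of Gnat1 in NMDA + PBS and from 65.0 to 71.97% in NMDA + SCF. The rod levels have the same limit as the cone levels, since nearly all of the Pde6g signal was on a processed transcript of 2250 bases, ENSMUST00000155421, and its coding transcript had at most 3 fragments. Gnat1 rested mostly on processed transcripts of 525 and 754 bases, and its coding transcript, ENSMUST00000010205, had at most 2 fragments. The coding transcript of Gngt1, ENSMUST00000031673, is in list B only, so its values come from a retained intron transcript. These percentages therefore compare the analysed transcripts and not cone with rod transducin.

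**Figure D4:**
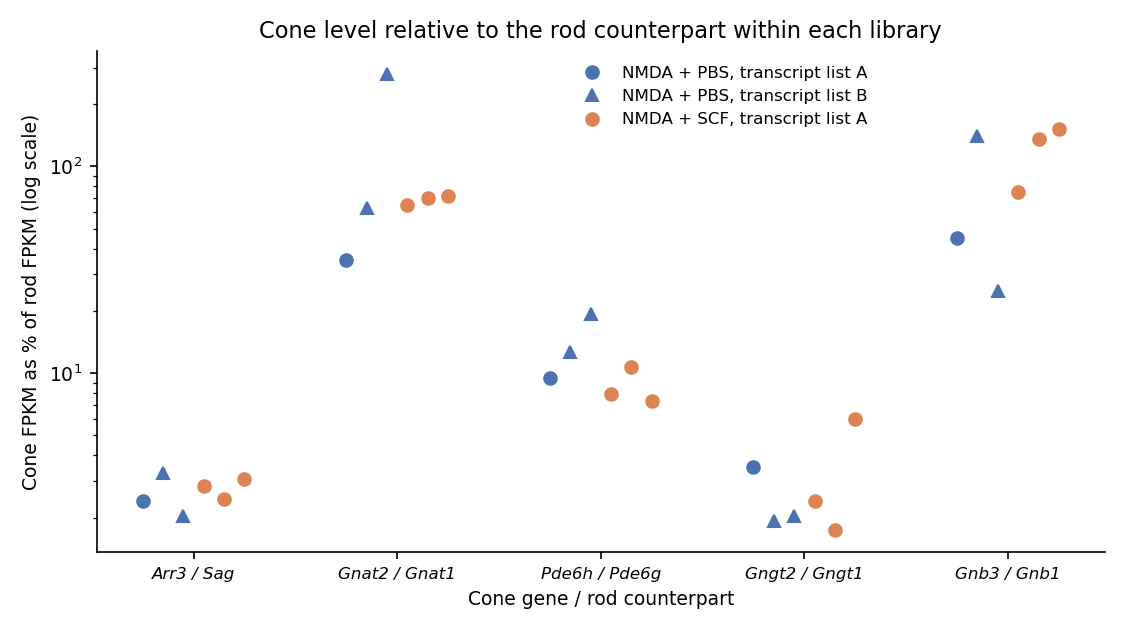
FPKM of a cone gene as a percent of its rod counterpart in each library, on a log axis, for the 5 pairs without the channel subunits. Points are libraries, with triangles for list B. The groups overlap in all 5, as for Pde6h to Pde6g with 7.32 to 10.7% in NMDA + SCF and 9.48 to 19.3% in NMDA + PBS.

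Among 18 other genes of phototransduction, 12 were tested and none passed the correction in limma. At an unadjusted p of 0.05, 0 were higher and 1 was lower, Slc24a2, the sodium, calcium and potassium exchanger of cones, which had at most 2 fragments in any library. Rbp3, the retinoid carrier between photoreceptors and pigment epithelium and the most abundant of the list, averaged 2360.04 ± 776 FPKM in NMDA + PBS and 2173 ± 263 FPKM in NMDA + SCF. Phosducin (Pdc), which binds the transducin beta-gamma pair, was at 42.7, 44.8 and 58.8 FPKM in NMDA + PBS and at 38.8, 41.7 and 23.4 FPKM in NMDA + SCF, with an adjusted p of 0.549 in limma. The list's median difference was 0.00.

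Of 12 genes of cone identity 10 were tested, and none passed the correction in limma. At an unadjusted p of 0.05, 0 were higher and 2 were lower, Crx and Rxrg. Crx, the homeobox factor of both photoreceptor types, was at 16.6, 18.5 and 19.96 FPKM in NMDA + PBS and at 13.2, 11.2 and 9.11 FPKM in NMDA + SCF. Its groups did not overlap in FPKM, also within list A, and the difference was -0.68 (SE 0.20, unadjusted p = 0.0120, adjusted p = 0.536 in limma). Crx had 80, 123 and 116 fragments in NMDA + PBS and 74, 80 and 64 in NMDA + SCF. In fragments, NMDA + PBS replicate 1 and NMDA + SCF replicate 2 were therefore equal. Rxrg, a retinoid receptor of cones, had at most 3 fragments in any library. Pygm, the muscle form of glycogen phosphorylase and the most abundant of the list, averaged 16.8 ± 2.60 FPKM in NMDA + PBS and 22.2 ± 3.89 FPKM in NMDA + SCF. The median difference of the list was -0.03.

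Thrb, the thyroid hormone receptor that directs cone opsin choice, was added after its values were seen, because its fragments followed the transcript list as those of Cngb3 did. There were 17, 492 and 731 fragments in the NMDA + PBS libraries and 14, 31 and 23 in those of NMDA + SCF. The levels were 8.38, 29.1 and 33.2 FPKM, and then 7.68, 13.8 and 12.4 FPKM.

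Rod identity and outer segment genes were set beside the cone genes. Of 5 rod identity genes tested, 1 was higher at an unadjusted p of 0.05 and 0 were lower. Fitted differences were above 0 for 3 of the 5 and below 0 for 2, with a median of 0.28. Nrl, the factor that directs rod fate, averaged 105 ± 19.8 FPKM in NMDA + PBS and 149 ± 14.0 FPKM in NMDA + SCF (adjusted p = 0.536 in limma), and Reep6 averaged 72.1 ± 4.73 and 87.6 ± 4.89 FPKM. Of 8 outer segment genes none passed either threshold in limma. Rom1, the most abundant, averaged 3656 ± 1360.4 FPKM in NMDA + PBS and 4079.6 ± 341 FPKM in NMDA + SCF, Tulp1 averaged 221 ± 26.4 and 289 ± 31.7 FPKM, and Rp1, which organises outer segment discs, averaged 1330.05 ± 342 and 996 ± 109 FPKM.

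Markers of the other cells that a dissected retina can hold moved unequally between the libraries. Of the lens list 11 of 12 genes were tested, and 9 were higher and 0 lower at an unadjusted p of 0.05, with 0 past the correction in limma. Their summed level was 24.3, 186 and 311 FPKM in NMDA + PBS and 5173, 464 and 9936.5 FPKM in NMDA + SCF, led by Crygs, with Bfsp2 next to it in p (4.19 ± 1.52 FPKM in NMDA + PBS and 44.2 ± 41.1 FPKM in NMDA + SCF, SD, n = 3 each). Cryaa, Crybb2, Crybb3, Gja3 and Lim2 were at 0 in NMDA + PBS replicate 1. On summed FPKM, the libraries with more lens signal had less Opn1sw within NMDA + SCF and more within NMDA + PBS. Neither order held on the main Opn1sw transcript alone, ENSMUST00000080428. That transcript was at 14.5, 13.6 and 23.3 FPKM in NMDA + PBS and 10.2, 13.6 and 10.7 FPKM in NMDA + SCF. The part of lens RNA in the cone values was not tested.

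Inner retinal, glial and pigment epithelium lists held few genes past an unadjusted p of 0.05 in limma, and none past the correction. Bipolar cells, which receive the cone signal, had 0 of 8 tested genes, with a summed level of 428 to 559.6 FPKM in NMDA + PBS and 518 to 554 FPKM in NMDA + SCF. The list's most abundant gene was Scgn, its smallest p values were those of Cabp5 and Pcp2, the last with at most 2 fragments, and Grm6, Gng13, Isl1 and Nyx were not tested. Retinal ganglion cells had 2 lower of 9, Nefh and Slc17a6, both high in the list B libraries only, with Sncg most abundant. Amacrine cells had 1 higher of 7 (Slc32a1, also the most abundant, with Tfap2b next by p), and horizontal cells had 1 lower of 3 (Onecut1, with Lhx1 next by p and Calb1 most abundant).

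Müller glia had 0 of 7 genes past that threshold, with Glul most abundant and Slc1a3 and Apoe smallest in p. Microglia had 0 of 5, with a summed level of 140.1, 291 and 35.6 FPKM in NMDA + PBS and 219, 298 and 301 FPKM in NMDA + SCF, nearly all from C1qa and C1qb, while Ptprc and Cx3cr1 were at or near 0. Pigment epithelium had 0 of 10, with Ttr most abundant and Best1 next to it in p, and summed to 873, 447 and 227 FPKM in NMDA + PBS and to 761, 994 and 968 FPKM in NMDA + SCF. Their part in the cone values was not tested.

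Genes with a pattern like the mean of the cone genes, or like Opn1sw alone, across the 6 libraries were sought among 14006 genes with a mean of at least 1 FPKM, by Pearson correlation of log2(FPKM + 1). For the mean of the 8 genes, the first 5 were D430018E03Rik, Zc3h10, Dctn1, Grm4 and Pogz, with coefficients from 0.988 to 0.991, and 277 genes reached 0.95. The mean itself followed Gnat2 (0.967) and Cngb3 (0.946), less so Pde6h (0.729), Opn1sw (0.526), Arr3 (0.372) and Gnb3 (0.290), and not Gngt2 (-0.244) or Cnga3 (-0.260). Each cone gene is part of this mean, and Cngb3 varied most, so these coefficients depend in part on the construction. Zc3h10 was at 6.38, 22.3 and 18.7 FPKM in NMDA + PBS and at 8.51, 6.56 and 8.34 FPKM in NMDA + SCF, so the first 5 genes share the separation of list B from list A. For Opn1sw alone the first 5 were Spata7, Rp1, Gm7599, Dennd5b and Dok6, with coefficients from 0.988 to 0.996, and 135 genes reached 0.95. Their shared feature was a high value in NMDA + PBS replicate 3, as for Dok6 with 5.63 FPKM there and 0.401 to 2.27 FPKM in the other 5 libraries. With 6 libraries that share lists and depth these coefficients are descriptions only.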

How the data were processed

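The authors deposited FPKM values per transcript for each of 3 NMDA + PBS and 3 NMDA + SCF retinal libraries, and a table of totals with clean reads and the percent of bases at or above quality 30 (92.9 to 94.3%), of which 5 other columns were not used. The aligner and counter are not given in the sources used here. The submitters' processing notes name mm9, but 98.2% of the 63313 transcript positions found in GENCODE M21 were those of GRCm38, which is used here. Rows of a merged assembly (8.85 to 11.4% of FPKM) have no gene and were left out.

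For each gene, the FPKM of its Ensembl transcripts in both lists were added up (46933 transcripts, with 7529 more in list A, 8966 in list B). Genes above 0 in any library entered limma 3.58.1 (R 4.3.3, variance trend) on log2(FPKM + 1) with condition only. FPKM times length was whole within 0.05 of a fragment for 98.4 to 98.5% of values, which gave fragments for depth, floors of 3 fragments and a voom fit (14.1 to 18.2% of clean pairs were counted). Floors and Wilson intervals cover counting error only. The genes, lists and tests were chosen with earlier results of these data known. The text names the cone genes, 9 rod counterparts, of each other list the most abundant gene and the 2 with the smallest p, and the 5 genes closest in pattern, and Thrb, Gfap, markers at 0, genes overlapping a cone gene and genes whose separation changed with the scaling were added after their values were seen. The code was tested on simulated data. Alternatives were upper quartile and median-of-ratios scaling, a pseudocount of 0.1, a filter at a mean FPKM of 1, the list as a term, all listed transcripts, the top transcript, no mitochondrial genes, a replicate block and each library left out. Tables were made with Python 3.11.15. A result on a single gene is left out. The planned ratio of the opsins and the protein features were not computed.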

Additional observations from a re-analysis of the deposited data

How the results depend on the processing

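For the 8 cone genes, 0 passed the correction in limma under the alternatives that gave an adjusted p (the list as a term gave none), except without NMDA + PBS replicate 1, where Cngb3 did (leaving each library out gave 0 to 1). At an unadjusted p of 0.05 the count was 1 in limma, 2 with all listed transcripts, 0 with voom and 0 to 2 with each library left out (Cngb3 and Gnat2 without NMDA + PBS replicate 1, Gnb3 and Arr3 without NMDA + PBS replicate 2, and none without any of the other 4 libraries). Over all genes it was 2324 of 25202 in limma, 2821 of 28601 with all listed transcripts and 2514 of 25169 with voom. It was 4332 of 24953 without NMDA + PBS replicate 1 and 1981 of 24799 without NMDA + PBS replicate 2. The count whose groups did not overlap was 2, and 1 with the top transcript only, where Opn1sw overlapped. It stayed at 2 genes, Cngb3 and Opn1sw, under the other scalings, and was 2 to 4 with each library left out, alternatives chosen after seeing the data. Without NMDA + PBS replicate 1 the groups of Gnat2 and Pde6h separated too (lower), and without NMDA + PBS replicate 2 those of Gnb3 and Arr3 (higher). With 2 libraries against 3 more of all genes separate, 17.3% lower and 14.8% higher in the first case and 11.4% and 13.3% in the second. No share of all genes is given for the other scalings or the top transcript, so those counts describe the cone genes only. Across all genes the count past the correction was 0 in limma, 2 with voom and 0 to 909 with each library left out (909 without NMDA + PBS replicate 1), that at a fold of 2 and an adjusted p of 0.001 was 0 to 191, and that at an unadjusted p of 0.05 was 1150 to 4332. The cause was not tested.

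Directions reversed for Gnat2 (0.52), Pde6h (0.12) and Gngt2 (-0.052) when the transcript list was a term of the fit, a setting that sets NMDA + SCF against NMDA + PBS replicate 1 alone. Gngt2 also reversed with the top transcript (-0.14) and without mitochondrial genes (-0.029), and Cnga3 with all listed transcripts (0.37). Leaving out each library gave -0.14 to 0.27 for Gngt2, -0.32 to 0.14 for Cnga3, including 0.09 without NMDA + PBS replicate 1 and 0.04 without replicate 3, 0.18 to 1.15 for Gnb3 and -4.45 to -2.26 for Cngb3. With voom Cngb3 was -6.67 (adjusted p = 0.504), and with a pseudocount of 0.1 it was -5.32 and Cnga3 -0.43. Another 110 fold changes with a test kept their direction and their side of an adjusted p of 0.05, and 64 counts stayed within 1.5 times the value reported. Some of these fold changes did cross an unadjusted p of 0.05, as the counts above show. With the list as a term, which gave no test, 5 fold changes kept their direction, among them Cngb3 at -0.14. No other scaling moved the median of all genes by more than -0.09.

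Same-numbered libraries did not deviate together (correlations of -0.05, -0.05 and -0.08 over 14013 genes). These values show no pairing by number, but with so few libraries they cannot exclude it. With the replicate block in limma, 0 genes passed the correction, 1856 had an unadjusted p of at most 0.05, and 1 cone gene, Cngb3, was among them (-3.01). Among the other listed retinal genes, Pde6b, Gnb1, Crx, Rxrg, Pdc, Slc24a2, Nefh and Onecut1 kept groups that did not overlap under all 3 scalings. Pde6g, Cabp5, Pygm, Nrl, Reep6, Tulp1, Rp1, Slc32a1 and Cdhr1 overlapped under at least 1 of them. Cnga1 and Prom1 separated (lower) under all 3, Lhx1, Thy1 and Rgr (lower) without mitochondrial genes, and Cngb1 (higher) under upper quartile scaling. Depth limits Cnga3, Gngt2 and Opn1mw most, with 0 to 7 fragments per library on the shared transcripts or, for Opn1mw, in list A.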

Other observations

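Gfap, the intermediate filament of reactive Müller glia and astrocytes, and C1qa, a complement gene of microglia, were highest in NMDA + PBS replicate 2, as Gnb3 was, which was noticed after the values were seen. Gfap measured 46.5, 261 and 32.3 FPKM in NMDA + PBS and 86.3, 182 and 159.7 FPKM in NMDA + SCF. C1qa measured 72.3, 155 and 16.7 FPKM in NMDA + PBS and 109, 142 and 153 FPKM in NMDA + SCF. C1qb measured 61.6, 122 and 16.6 FPKM in NMDA + PBS and 97.9, 146 and 137 FPKM in NMDA + SCF, highest in NMDA + SCF replicate 2. All of them were lowest in NMDA + PBS replicate 3. The adjusted p values in limma were 0.688 for Gfap, 0.596 for C1qa and 0.545 for C1qb.

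In list A alone, the coding Gnat2 transcript of 842 bases that is outside list B had 7 fragments in NMDA + PBS replicate 1 and 10, 11 and 7 in NMDA + SCF. Over all 4 list A transcripts Gnat2 was at 11.1 FPKM in NMDA + PBS replicate 1 and at 16.3, 14.4 and 17.9 FPKM in NMDA + SCF, so all NMDA + SCF libraries were above that single control library, with no test.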
